A study of Homo sapiens with 48 samples.

Results

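The 9 genes described here encode regulators of plasminogen activation and of blood coagulation. They are the plasminogen activators PLAU and PLAT, the urokinase receptor PLAUR, the serpins SERPINB2, SERPINE2 and SERPINB7, the coagulation initiator F3 and the Kunitz-type inhibitors TFPI and TFPI2. They were chosen by name, with earlier results of these data known, and make up 9 of the 29744 genes quantified. All 9 passed the filter on low counts in every comparison.

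Plasminogen is a circulating proenzyme that PLAU (urokinase) or PLAT (tissue-type plasminogen activator) converts to plasmin, a protease that dissolves fibrin and degrades extracellular matrix. PLAUR anchors urokinase at the cell surface, and serpins such as SERPINB2 and SERPINE2 inactivate the activators by forming covalent complexes with them. F3 (tissue factor) is the receptor for factor VII that starts coagulation outside the vessel, and TFPI shuts that step off. Fibroblasts of injured tissue carry both systems, so that the same cell can promote fibrin deposition and fibrin removal.

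The study measured polyadenylated RNA from immortalized human fibroblasts with an IL11mNG reporter, an mNeonGreen sequence placed ahead of the stop codon of IL11. There were 16 conditions with 3 libraries each, 48 in all. H47_Ctrl and H47_KO were Cas9 cells with a non-targeting guide RNA or a guide against GLIS3, a Krüppel-like zinc finger transcription factor. VP64_Ctrl and VP64_A were the corresponding pair in cells with catalytically dead Cas9 fused to the VP64 activator. Each was a drug-selected population of transduced cells derived from sorted reporter clones, so that cells without an edit may remain. Cells were left untreated (0 h) or given TGFβ and IL-1β, each at 10 ng/ml, for 6, 12 or 24 h before a common harvest. In the second pair, the sample titles and the sample descriptions name opposite groups as control. The groups here follow the descriptions, and under the titles the sign of each comparison between VP64_A and VP64_Ctrl turns. The cell line label is the same for all 48 libraries, naming Cas9 and a GLIS3 knockout for the controls and the VP64 libraries too, and was not used for grouping. The study's reporting summary describes its culture experiments as independent biological replicates, whereas the labels number the libraries without saying whether they were separate cultures. The p-values measure the spread between these libraries.

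Total estimated counts ran from 2321990 to 10661004 per library. GLIS3 itself was at 1.45 to 6.47 CPM (counts scaled to library size after TMM normalisation, the level used below for each gene across conditions) in H47_Ctrl, 0.144 to 1.63 in H47_KO, 1.91 to 6.31 in VP64_Ctrl and 16.6 to 36.7 in VP64_A, so that the libraries described as activated had the highest levels. Each of 10 fibroblast markers was detected in all 48 libraries, whereas the epithelial markers EPCAM and KRT5, the endothelial markers CDH5 and KDR and the immune markers CD3D and LYZ were at or close to 0 TPM (abundance corrected for transcript length and library size). The other markers of these types were detected in some libraries. CDH1, PECAM1, VWF and PTPRC reached at most 0.125, 0.615, 0.448 and 0.505 TPM, and the immune marker CD14 at most 2.35 TPM. KRT14 went higher, to 78.9 TPM. The summed TPM of the 4 epithelial markers was 14.1 to 78.9 in VP64_A and 2.17 to 12.8 in VP64_Ctrl, and the part of this difference in the results on VP64_A was not tested. A set of 3 libraries stood apart in composition, namely replicate 3 of H47_KO at 0 h and at 24 h and of VP64_Ctrl at 0 h. Their TMM factors were 1.503 to 1.84 against at most 1.34 in the other 45 libraries, and their 50 most abundant genes took 23.1% to 31.4% of the counts against 32.6% to 46.4%. Counts of calls are therefore also given without these 3 libraries. Replicates 1 and 2 of VP64_Ctrl at 0 h stayed in, with factors of 1.32 and 1.21. Their shares were 32.6% and 34.9%, against 37.9% to 41.2% in VP64_A at 0 h. Leaving out replicate 3 therefore does not make these groups alike in composition. In bulk RNA, fewer cells expressing a gene and less RNA per cell cannot be told apart.

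Before cytokine exposure, SERPINE2, a cell-bound inhibitor of thrombin and of both plasminogen activators, had the highest TPM of the 9 genes in each group of cells, at 498 ± 74.9 (SD, n = 3) in H47_Ctrl, 825 ± 93.3 in H47_KO, 493 ± 51.2 in VP64_Ctrl and 224 ± 23.1 in VP64_A. PLAUR followed, and in VP64_A its 202 ± 18.6 TPM overlapped the range of SERPINE2. At the other end stood PLAU, SERPINB2 and TFPI2. In H47_Ctrl, PLAU at 5.403 ± 1.72 TPM and SERPINB2 at 4.88 ± 1.85 TPM could not be ordered, whereas in VP64_A the lowest gene was TFPI2, at 1.12 ± 0.248 TPM, below the range of all others. With the cytokines the order was different. SERPINB2 had the highest mean TPM in 8 of the 16 conditions, all of them treated, and SERPINE2 in the other 8, which include every untreated one. At 6 h SERPINE2 was still first in both H47 groups. It was at 1045 TPM against 784 for SERPINB2 in H47_Ctrl and at 1625 against 1034 in H47_KO. After 12 h SERPINB2 led in each group of cells, with 2891 ± 842 TPM in H47_Ctrl, 2861 ± 677 in H47_KO, 9105 ± 959 in VP64_Ctrl and 4595 ± 471 in VP64_A, above the range of each other gene. By 24 h SERPINE2 was again first in both H47 groups, while in VP64_Ctrl SERPINB2 at 1325 ± 323 TPM overlapped SERPINE2 at 1066 ± 126.

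**Figure D1:**
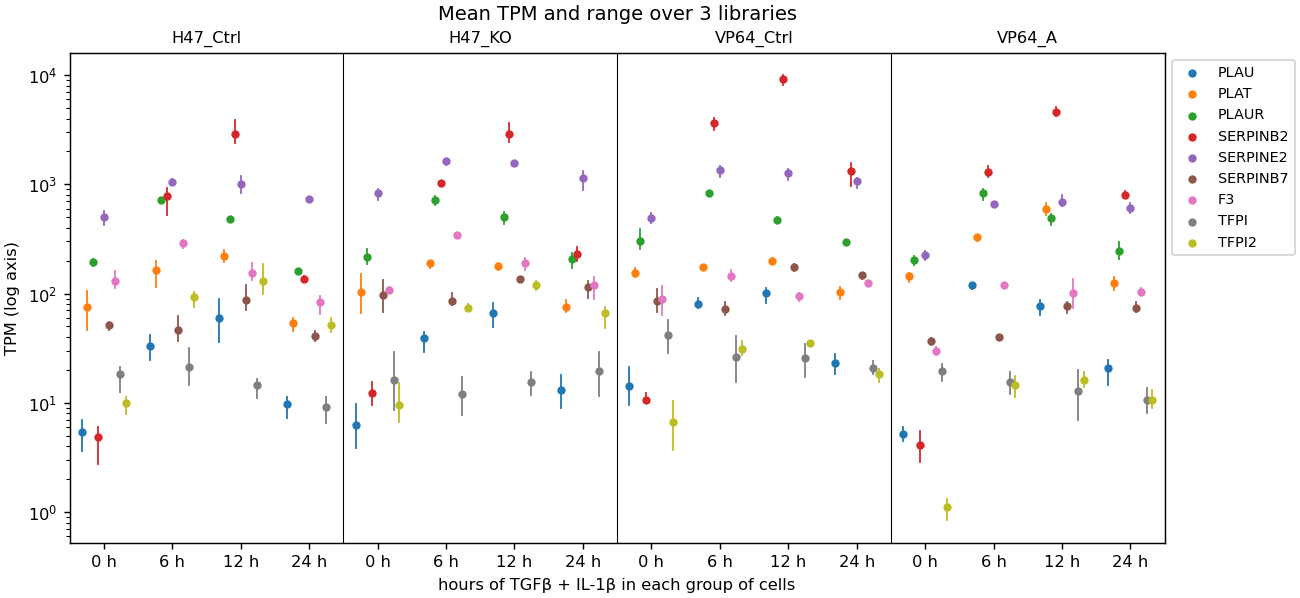
Level of the 9 genes in TPM (log axis), a unit that corrects for transcript length and so allows genes to be compared, in the 16 conditions along the horizontal axis. Points are means and vertical lines the range of 3 libraries, and SERPINB2 (red) climbs from among the lowest levels at 0 h to the highest at 12 h in all 4 groups of cells.

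The start regions of 8 of the 9 genes were read from the RefSeq promoter table (GRCh38.p14, 250 bases before to 50 after the annotated start, 12 windows, since SERPINE2, PLAU and SERPINB7 have several starts). The AP-1 motif TGANTCA, the site of the FOS and JUN family, was found on either strand in the windows of 5 of these 8 genes (F3, TFPI2, SERPINB7, SERPINB2 and PLAUR). It was in 6 of these 12 windows and in 7.71% of all 35116 windows of the table. The NF-kB consensus was in 2 of the 12, at TFPI2 and one start of SERPINB7, against 5.91% of all windows. The TATA box motif TATAAA was found on the gene's strand in 2 of the 12, at SERPINB2 and one start of SERPINB7, against 7.33%. No window held the TEAD motif GGAATG (14.03% of all windows) or the GLIS motif TGGGGGGT (1.47%), which says only that these letters are not in these windows. Windows are shown for the members with an AP-1 match, with AP-1 and TATA matches in capitals. Members without a match also rose with the cytokines, PLAU in 12 of 12 comparisons and SERPINE2 in 10 of 12. A link between the motif and the response was not tested. Their order is F3 (chr1:94541710-94542009, minus strand), PLAUR (chr19:43670120-43670419, minus strand), TFPI2 (chr7:93890704-93891003, minus strand), SERPINB2 (chr18:63887455-63887754, plus strand) and one of the 3 starts of SERPINB7 (chr18:63777531-63777830, plus strand).
F3: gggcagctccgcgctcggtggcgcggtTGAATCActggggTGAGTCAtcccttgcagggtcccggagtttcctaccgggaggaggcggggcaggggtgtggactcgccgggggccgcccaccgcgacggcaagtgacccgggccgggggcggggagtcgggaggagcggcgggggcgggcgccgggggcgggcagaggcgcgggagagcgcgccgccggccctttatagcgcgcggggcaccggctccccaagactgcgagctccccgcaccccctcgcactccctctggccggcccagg
PLAUR: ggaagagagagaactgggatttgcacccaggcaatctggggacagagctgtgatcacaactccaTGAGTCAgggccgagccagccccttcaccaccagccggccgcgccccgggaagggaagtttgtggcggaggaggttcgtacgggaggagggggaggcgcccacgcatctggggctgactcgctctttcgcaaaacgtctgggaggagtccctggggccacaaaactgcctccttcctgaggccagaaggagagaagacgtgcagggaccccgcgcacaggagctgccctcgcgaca
TFPI2: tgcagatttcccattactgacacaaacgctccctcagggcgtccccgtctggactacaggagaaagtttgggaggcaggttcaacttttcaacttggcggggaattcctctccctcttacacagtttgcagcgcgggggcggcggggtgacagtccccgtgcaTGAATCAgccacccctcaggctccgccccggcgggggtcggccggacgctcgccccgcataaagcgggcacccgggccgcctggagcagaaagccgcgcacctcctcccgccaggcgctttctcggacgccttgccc
SERPINB2: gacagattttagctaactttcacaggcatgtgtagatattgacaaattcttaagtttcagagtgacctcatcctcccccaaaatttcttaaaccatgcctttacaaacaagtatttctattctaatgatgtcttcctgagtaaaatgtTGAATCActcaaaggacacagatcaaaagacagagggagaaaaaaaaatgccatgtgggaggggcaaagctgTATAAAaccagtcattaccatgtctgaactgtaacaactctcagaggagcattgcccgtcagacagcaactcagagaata
SERPINB7: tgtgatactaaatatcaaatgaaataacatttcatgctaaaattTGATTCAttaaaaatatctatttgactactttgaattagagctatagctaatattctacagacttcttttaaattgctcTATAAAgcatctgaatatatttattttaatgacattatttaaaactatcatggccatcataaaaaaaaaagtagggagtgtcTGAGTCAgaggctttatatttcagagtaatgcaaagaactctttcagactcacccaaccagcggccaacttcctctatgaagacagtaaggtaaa
The AP-1 match lay 102 bases before the start in SERPINB2 and 87 bases before the start in TFPI2. The TATAAA match lay 30 bases before the start in SERPINB2 but 127 bases before the start of SERPINB7 shown here. F3 had AP-1 matches 223 and 210 bases upstream, PLAUR 186 and this start of SERPINB7 206 and 45 bases upstream, while PLAU, SERPINE2 and TFPI had none. These matches are descriptions of sequence and not of binding. SERPINB7 and SERPINB2 are neighbours in the serpin cluster of chromosome 18, at 63752935 to 63805376 and 63871692 to 63903888 (GRCh38, GENCODE v44), with 66.3 kb between them.

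The cytokine time course addressed how these genes respond to the inflammatory and fibrogenic signals the study used. SERPINB2, PLAU and TFPI2 rose at 6, 12 and 24 h in all 4 groups of cells. PLAT and PLAUR rose at 6 and 12 h in all 4 and were not called at 24 h with edgeR. At 24 h PLAUR in VP64_A passed with DESeq2 (0.57, adjusted p = 0.0292) and in a fit of only the libraries compared (0.56, adjusted p = 0.00874). PLAT in VP64_Ctrl was lower by test with limma on log2(TPM + 1) (-0.59, adjusted p = 0.00523). The 3 times of a group share its 0 h libraries. At 6 h, 7 of 9 genes rose in H47_Ctrl, 7 in H47_KO, 8 in VP64_Ctrl and 7 in VP64_A, where 10.3%, 13.2%, 16.2% and 11.4% of all genes tested rose. No member fell, against 5.6%, 10.8%, 12.6% and 5.93% of all genes. At 12 h the numbers were 7, 8, 8 and 8, against 11.3%, 14.4%, 15.3% and 12.6%, and again no member fell, against 8.27%, 13%, 11.5% and 7.1%. At 24 h they were 3, 3, 6 and 6, against 6.53%, 9.07%, 10.4% and 9%. With edgeR TFPI was the only member that fell, in 3 of the 4 groups and not in H47_KO, whereas limma on log2(TPM + 1) called PLAT in VP64_Ctrl, as above, and F3 in H47_Ctrl lower (-0.62, adjusted p = 0.0482) and TFPI in none. The share of all genes that fell with edgeR was 3.73%, 6.78%, 5.57% and 4.55% in the order above. The median log2 fold change over the 9 genes at 6 h was 1.30 in H47_Ctrl, 2.10 in H47_KO, 2.18 in VP64_Ctrl and 2.27 in VP64_A, with medians over all genes between -0.10 and -0.01. Without the 3 libraries that stood apart, the calls over the 3 times were 19 in place of 18 in H47_Ctrl, 18 as before in H47_KO, 21 in place of 23 in VP64_Ctrl and 22 as before in VP64_A.

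**Figure D2:**
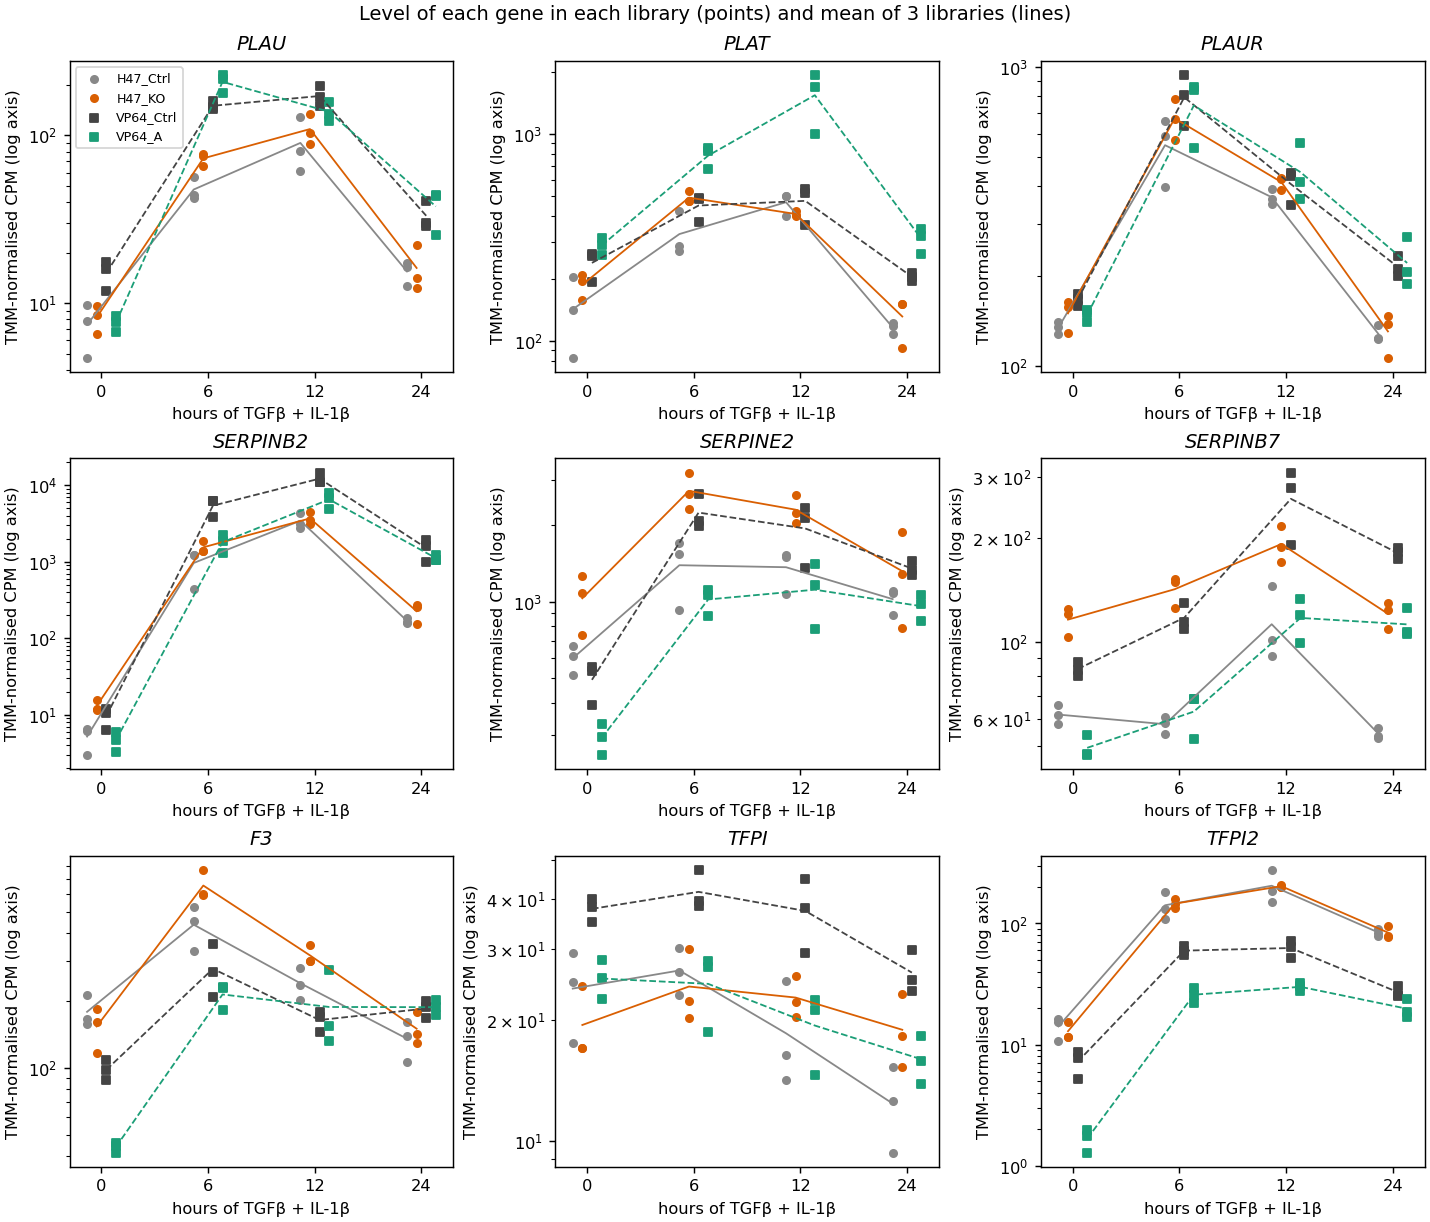
Level of each gene in CPM (log axis) in every library (points) against hours of TGFβ and IL-1β, with lines through the means of 3 libraries. Grey and orange circles are H47_Ctrl and H47_KO and dark and green squares VP64_Ctrl and VP64_A, and every treated SERPINB2 library lies above the untreated libraries of its group.

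Of the activators, PLAU was at 4.73, 9.82 and 7.83 CPM in the 3 untreated H47_Ctrl libraries, at 43.8, 42.4 and 56.5 after 6 h and at 128, 80.8 and 61.3 after 12 h. In VP64_A it was at 6.697, 8.43 and 7.74 before and 179.6, 217 and 228 after 6 h. No treated library of these conditions overlapped its untreated group. For comparisons between times, the share of all genes that separated in this way is not given here. The rise at 12 h was 12.2-fold in H47_Ctrl (log2 fold change 3.61, SE 0.26, edgeR adjusted p = 1.21e-12), and that at 6 h was 27.4-fold in VP64_A (log2 fold change 4.78, SE 0.21, edgeR adjusted p = 3.97e-18). At 24 h PLAU was still above its starting level in each group, by 1.11, 0.89, 1.12 and 2.33 on the log2 scale in H47_Ctrl, H47_KO, VP64_Ctrl and VP64_A. This late call was lost in H47_Ctrl without H47_Ctrl 0 h replicate 1 or H47_Ctrl 24 h replicate 1 (log2 fold change 0.82 to 1.01, adjusted p = 0.0607 to 0.107). In H47_KO it was lost without H47_KO 0 h replicate 1 or H47_KO 24 h replicate 2 (log2 fold change 0.69 to 0.77, adjusted p = 0.0774 to 0.0931). Both were lost with limma on log2(TPM + 1), at 0.77 at adjusted p = 0.2097 and 0.98 at adjusted p = 0.0659.

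PLAT, the activator that works best on fibrin-bound plasminogen, was called at 6 and 12 h. It was at 82.8, 141 and 203 CPM in untreated H47_Ctrl and 502, 400.3 and 502 at 12 h, and at 259, 291 and 315 and 1692, 1003 and 1924 in the same conditions of VP64_A. The treated and untreated libraries did not overlap in either group, again without the share of all genes beside it. The rise at 12 h was 3.31-fold in H47_Ctrl (log2 fold change 1.73, SE 0.23, edgeR adjusted p = 8.10e-07) and 5.33-fold in VP64_A (log2 fold change 2.42, SE 0.22, edgeR adjusted p = 3.33e-10). In VP64_Ctrl at 6 h its call (log2 fold change 0.92, SE 0.21, edgeR adjusted p = 0.00142) was lost with limma on log2(TPM + 1), at 0.17 at adjusted p = 0.306. PLAUR, the receptor, was highest at 6 h, with 397, 589 and 659 CPM in H47_Ctrl against 135, 128 and 140.5 untreated and 635, 804 and 940.0 in VP64_Ctrl against 168, 174 and 159. Its rise at 6 h lay between 2.03 and 2.33 on the log2 scale over the 4 groups.

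Among the serpins, SERPINB2 (plasminogen activator inhibitor type 2) had the greatest response of the 9 genes in all 12 cytokine comparisons. In H47_Ctrl it was at 6.21, 6.44 and 2.97 CPM untreated, 437, 1236 and 1224 at 6 h, 4365, 2804 and 3162 at 12 h and 160.2, 182 and 166 at 24 h. VP64_Ctrl had 11.99, 10.5 and 6.29 untreated and 10963, 11027 and 14636 at 12 h. The untreated levels rest on 11 to 46 and 42 to 145 estimated counts per library, few enough that the denominators of the folds are imprecise. The rise at 12 h was 632-fold in H47_Ctrl (log2 fold change 9.304, SE 0.43, edgeR adjusted p = 1.21e-17), 283-fold in H47_KO (SE 0.405 on the log2 scale), 1248-fold in VP64_Ctrl (SE 0.42) and 1381-fold in VP64_A (SE 0.43).

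SERPINE2 rose in 10 of 12 comparisons, from 552, 534 and 392 CPM untreated to 2068, 1989 and 2657 at 6 h in VP64_Ctrl (log2 fold change 2.18, SE 0.24, edgeR adjusted p = 1.01e-08). At 24 h it was not called in H47_Ctrl (log2 fold change 0.77, SE 0.28, edgeR adjusted p = 0.0747) or H47_KO (log2 fold change 0.35, SE 0.27, edgeR adjusted p = 0.431). The H47_Ctrl difference passed in DESeq2 (0.77, adjusted p = 0.02402) and without the 3 libraries that stood apart (0.76, adjusted p = 0.0222). SERPINB7 (megsin), a serpin of skin and kidney mesangium whose loss causes a hereditary thickening of the palms and soles, was called at 12 h in all 4 groups. In H47_KO the 12 h call (0.72) was lost with limma on log2(TPM + 1), at 0.53 at adjusted p = 0.115. At 6 h SERPINB7 passed in VP64_Ctrl (0.49), a call that was lost without VP64_Ctrl 0 h replicate 2 or 3 or VP64_Ctrl 6 h replicate 3 (log2 fold change 0.42 to 0.49, adjusted p = 0.0511 to 0.0906) and that turned with limma on log2(TPM + 1), to -0.199 at adjusted p = 0.324. In VP64_A its libraries held 53.9, 47.4 and 47.1 CPM untreated, 52.3, 68.3 and 68.3 at 6 h, 133, 99.5 and 119.6 at 12 h and 107, 105 and 125 at 24 h. In H47_Ctrl the 24 h libraries, at 53.7, 52.8 and 56.6 CPM, were below the untreated ones, at 61.4, 58.1 and 65.6, without passing the test (log2 fold change -0.18, SE 0.16, edgeR adjusted p = 0.6105).

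In the coagulation branch, F3 was at 212, 157 and 165 CPM in untreated H47_Ctrl and 333, 525 and 456 at 6 h, and at 41.6, 46.03 and 44.5 and 181, 229.7 and 228 in VP64_A. The rise at 6 h was 2.46-fold in H47_Ctrl (log2 fold change 1.297, SE 0.205, edgeR adjusted p = 1.35e-05) and 4.84-fold in VP64_A (log2 fold change 2.27, SE 0.21, edgeR adjusted p = 4.24e-10). At 24 h it had passed the test in both VP64 groups (0.91 in VP64_Ctrl, 2.08 in VP64_A) and in neither H47 group (-0.41 in H47_Ctrl, -0.04 in H47_KO). With limma on log2(TPM + 1), the VP64_Ctrl calls were lost at 12 h (0.12 at adjusted p = 0.626) and at 24 h (0.54 at adjusted p = 0.0523), and H47_Ctrl was called lower at 24 h (-0.62 at adjusted p = 0.0482).

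The inhibitors TFPI and TFPI2 are described in turn. TFPI2, a Kunitz-type inhibitor that acts more on plasmin than on tissue factor, was at 10.8, 16.3 and 15.4 CPM untreated and 276, 152 and 186 at 12 h in H47_Ctrl, and at 1.29, 1.76 and 1.98 and 32.2, 27.6 and 30.2 in VP64_A. The rise at 12 h was 14.6-fold in H47_Ctrl (log2 fold change 3.87, SE 0.22, edgeR adjusted p = 1.54e-15) and 18.2-fold in VP64_A (log2 fold change 4.19, SE 0.24, edgeR adjusted p = 3.10e-15). TFPI was not called at 6 or 12 h in any group, with log2 fold changes between -0.38 and 0.32, and it fell at 24 h in 3 groups. It went from 17.6, 29.3 and 24.9 CPM to 12.6, 9.35 and 15.2 in H47_Ctrl, from 38.1, 35.1 and 39.98 to 25.1, 29.8 and 23.6 in VP64_Ctrl and from 28.1, 22.5 and 25.4 to 13.8, 18.2 and 15.8 in VP64_A. The log2 fold changes were -0.91, -0.54 and -0.68, with edgeR adjusted p = 0.0109, 0.03705 and 0.0153, and in H47_KO the value was -0.03 (95% interval -0.46 to 0.401). These calls were lost in H47_Ctrl without H47_Ctrl 0 h replicate 2 or H47_Ctrl 24 h replicate 2 (log2 fold change -0.78 to -0.72, adjusted p = 0.0648 to 0.104) and in VP64_Ctrl without VP64_Ctrl 0 h replicate 1 or 3 or VP64_Ctrl 24 h replicate 1 or 3 (log2 fold change -0.55 to -0.497, adjusted p = 0.0691 to 0.122). In VP64_A it was lost without VP64_A 0 h replicate 1 or VP64_A 24 h replicate 1 or 3 (log2 fold change -0.68 to -0.59, adjusted p = 0.0611 to 0.0899). All 3 were lost with limma on log2(TPM + 1), at -0.91 at adjusted p = 0.194, -0.92 at adjusted p = 0.0507 and -0.84 at adjusted p = 0.106.

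**Figure D3:**
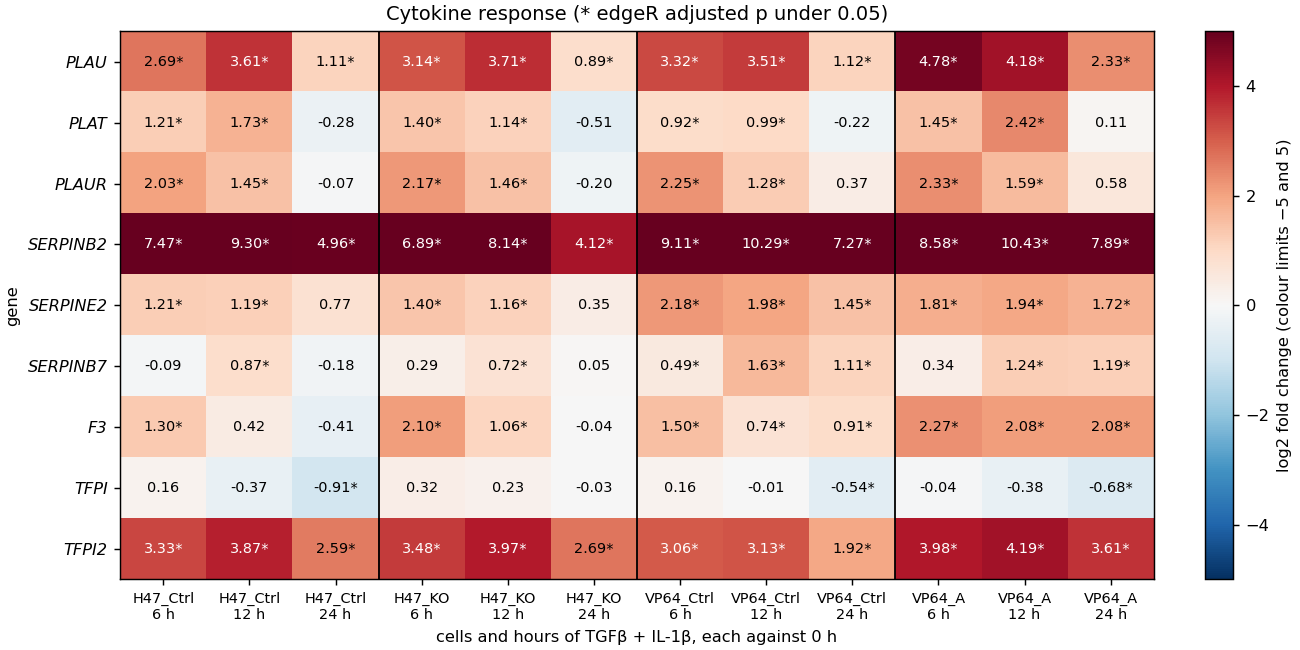
Log2 fold change of each gene (rows) at 6, 12 and 24 h of TGFβ and IL-1β against 0 h in each group of cells (columns), printed in the cells and coloured red for higher and blue for lower with the colours saturating at 5. Asterisks mark edgeR adjusted p under 0.05, and the SERPINB2 row holds the highest value of each column while the TFPI row is close to 0 until 24 h.

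Between 6 and 24 h the response was partly withdrawn. PLAU, PLAT and PLAUR fell in all 4 groups of cells, and over the 9 genes 7 fell in H47_Ctrl, 7 in H47_KO, 8 in VP64_Ctrl and 4 in VP64_A, where 7.74%, 12.1%, 9.45% and 6.72% of all genes tested fell. The log2 fold change of PLAUR was -2.098 in H47_Ctrl, -2.37 in H47_KO, -1.88 in VP64_Ctrl and -1.75 in VP64_A. SERPINB7 was the only member that was higher at 24 h than at 6 h. In VP64_Ctrl it went from 114, 109 and 129 CPM to 183, 186 and 174 (log2 fold change 0.63, SE 0.16, edgeR adjusted p = 0.00605), and in VP64_A from 52.3, 68.3 and 68.3 to 107, 105 and 125 (log2 fold change 0.84, SE 0.17, edgeR adjusted p = 0.000529). In both cases the libraries did not overlap, and the share of all genes that separated in this way is not given here. The share of all genes called higher at 24 h with edgeR was 6.9%, 12.1%, 8.98% and 5.8% in H47_Ctrl, H47_KO, VP64_Ctrl and VP64_A. Calls of TFPI2 in H47_Ctrl, of SERPINE2 and F3 in VP64_Ctrl and of TFPI in VP64_A were lost without single libraries. For TFPI2 this was H47_Ctrl 6 h replicate 2 (log2 fold change -0.52, adjusted p = 0.0817). For SERPINE2 it was VP64_Ctrl 6 h replicate 3 or VP64_Ctrl 24 h replicate 1 or 3 (log2 fold change -0.76 to -0.59, adjusted p = 0.05799 to 0.117). For F3 it was VP64_Ctrl 6 h replicate 2 or 3 or VP64_Ctrl 24 h replicate 1, 2 or 3 (log2 fold change -0.64 to -0.37, adjusted p = 0.0624 to 0.274). For TFPI it was VP64_A 6 h replicate 1 or 2 or VP64_A 24 h replicate 1 or 3 (log2 fold change -0.63 to -0.55, adjusted p = 0.1003 to 0.137). With limma on log2(TPM + 1), these calls of SERPINE2, F3 and TFPI were lost as well, at -0.34 at adjusted p = 0.0791, -0.18 at adjusted p = 0.533 and -0.498 at adjusted p = 0.485. So were those of TFPI in H47_Ctrl (-1.09 at adjusted p = 0.08599) and VP64_Ctrl (-0.22 at adjusted p = 0.6698) and of TFPI2 in H47_KO (-0.18 at adjusted p = 0.582) and VP64_Ctrl (-0.73 at adjusted p = 0.0518). Without the 3 libraries that stood apart the number of calls was 28, as with them.

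The comparison of H47_KO with H47_Ctrl asked which of these genes depend on GLIS3. SERPINB7 was the only member called with edgeR, and it was higher in H47_KO at each of the 4 times. DESeq2 also called SERPINB2 at 0 h and SERPINE2 and F3 at 6 h, and limma on log2(TPM + 1) called SERPINB2 and SERPINE2 at 0 h. With edgeR, SERPINB7 is 1 of 9 genes at each time, where 0.301%, 0.319%, 0.0821% and 0.21% of all genes tested were called in either direction at 0, 6, 12 and 24 h. SERPINB7 in the untreated libraries was at 61.4, 58.1 and 65.6 CPM in H47_Ctrl and 104, 124 and 120.2 in H47_KO. After 6 h they held 58.5, 54.3 and 60.9 and 126, 152 and 149, and after 12 h 146, 90.9 and 101 and 217, 170.2 and 188. At 24 h the values were 53.7, 52.8 and 56.6 in H47_Ctrl and 123, 129 and 109 in H47_KO. All H47_KO libraries were above all H47_Ctrl libraries at each time, as was 1 group above or below the other for 17.8%, 14.9%, 15.2% and 13.5% of all genes. The ratios were 1.88-fold at 0 h (log2 fold change 0.91, SE 0.15, edgeR adjusted p = 0.00587) and 2.45-fold at 6 h (log2 fold change 1.29, SE 0.16, edgeR adjusted p = 2.35e-05). They were 1.71-fold at 12 h (log2 fold change 0.77, SE 0.15, edgeR adjusted p = 0.0277) and 2.21-fold at 24 h (log2 fold change 1.15, SE 0.16, edgeR adjusted p = 0.000327). The 0 h call was lost without H47_Ctrl 0 h replicate 1 (log2 fold change 0.91, adjusted p = 0.0547). The 12 h call was lost without H47_Ctrl 12 h replicate 2 or 3 or H47_KO 12 h replicate 1 or 3 (log2 fold change 0.64 to 0.78, adjusted p = 0.0665 to 0.277). With limma on log2(TPM + 1) the calls at 0, 6 and 12 h were lost with the sign kept, at 0.85 at adjusted p = 0.339, 0.91 at adjusted p = 0.1302 and 0.67 at adjusted p = 0.834.

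**Figure D4:**
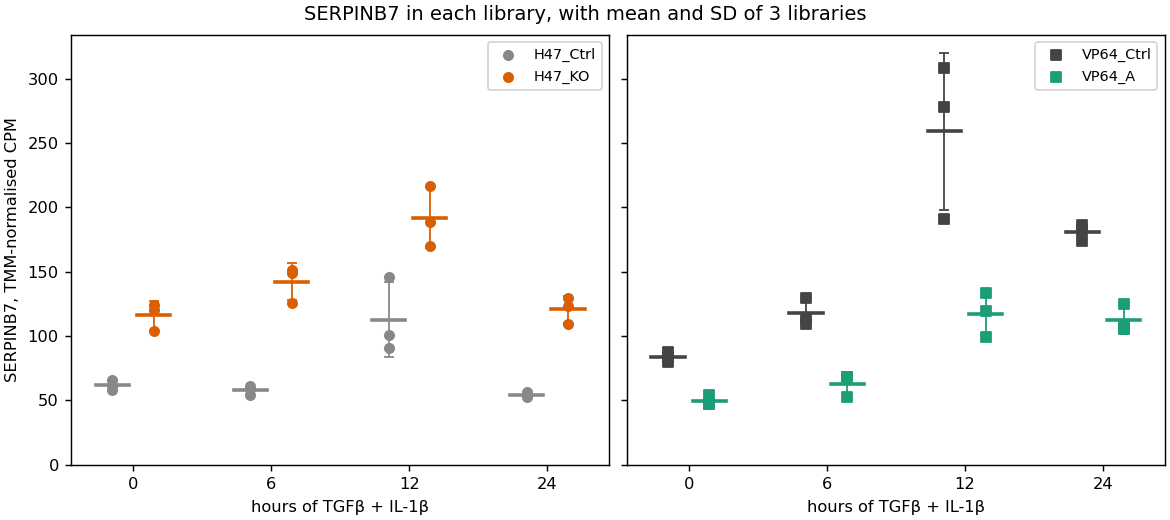
SERPINB7 in CPM in every library (points), with the mean (horizontal bar) and SD (vertical line) of 3 libraries, against hours of TGFβ and IL-1β. Left, H47_Ctrl (grey) and H47_KO (orange), where H47_KO is above its control at each time. Right, VP64_Ctrl (dark) and VP64_A (green), where VP64_A is below its control at each time.

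The other serpins were higher in H47_KO in these libraries without passing the test. SERPINE2 was at 927, 1544 and 1699 CPM in H47_Ctrl and 2649, 3214 and 2312 in H47_KO at 6 h, which did not overlap (log2 fold change 0.97, SE 0.28, edgeR adjusted p = 0.122, 95% interval 0.43 to 1.51). It passed at 0 h with limma on log2(TPM + 1) (0.73, adjusted p = 0.0311), at 6 h with DESeq2 (0.99, adjusted p = 0.00506), and at 0 h and 6 h without the 3 libraries that stood apart (0.97, adjusted p = 0.0449 and 0.98, adjusted p = 0.0274). SERPINB2 was at 6.21, 6.44 and 2.97 CPM and 15.6, 11.7 and 11.98 CPM in the untreated cells (log2 fold change 1.26, SE 0.37, edgeR adjusted p = 0.127), and passed there with DESeq2 (1.28, adjusted p = 0.0492) and in a fit of only the libraries compared (1.25, adjusted p = 0.0313). TFPI2 was the member closest to 0 over the 4 times. Its differences lay between -0.11 and 0.04 on the log2 scale over the 4 times, and the widest 95% interval, at 0 h, was -0.55 to 0.33. PLAUR, PLAU, PLAT, F3 and TFPI were not called with edgeR at any time, with log2 fold changes between -0.29 and 0.63, and F3 passed at 6 h with DESeq2 (0.61, adjusted p = 0.0496). The number of calls over the 4 times was 4 with edgeR, 7 with DESeq2 and 6 without the 3 libraries that stood apart. The shares of all genes given for this comparison are those of edgeR with all libraries. Whether the 7 and 6 go beyond a rise in calls over all genes is therefore not shown.

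VP64_A, the libraries with the higher GLIS3 level, had lower levels of most of these genes than VP64_Ctrl. SERPINB7 and TFPI were lower at all 4 times, TFPI2 and SERPINE2 at 3, SERPINB2 at 0 h and 6 h, and F3 and PLAU at 0 h. PLAT was the only member that was higher, at 6 h and 12 h, and PLAUR was not called with edgeR. At 0, 6, 12 and 24 h, 7, 5, 4 and 2 of the 9 genes were lower, where 5.12%, 1.9%, 1.94% and 2.13% of all genes tested were lower. The single higher gene at 6 h and at 12 h, and none at 0 h and 24 h, stand beside 4.29%, 1.86%, 2.37% and 1.99% of all genes higher at 0, 6, 12 and 24 h. The median log2 fold change of the 9 genes was -0.76, -0.77, -0.80 and -0.43, with medians over all genes between -0.02 and 0.01. The number of calls over the 4 times was 20, also without the 3 libraries that stood apart.

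SERPINB7 was at 87.8, 82.9 and 79.95 CPM in untreated VP64_Ctrl and 53.9, 47.4 and 47.1 in VP64_A. At 6 h it was at 114, 109 and 129 and 52.3, 68.3 and 68.3, at 12 h at 278, 191 and 309 and 133, 99.5 and 119.6, and at 24 h at 183, 186 and 174 and 107, 105 and 125. All VP64_A libraries were below all VP64_Ctrl libraries at each time, a separation that 26.6%, 18.5%, 16.9% and 23.4% of all genes showed in either direction. The log2 fold change was -0.75 at 0 h, -0.897 at 6 h, -1.15 at 12 h and -0.68 at 24 h, with SE of 0.16, 0.17, 0.16 and 0.16 and edgeR adjusted p = 0.00234, 0.000559, 1.14e-05 and 0.008101. SERPINB7 was higher in H47_KO and lower in VP64_A than in the respective control at every time. The lower level in VP64_A was not particular to it, since 7 of the 9 genes were lower there at 0 h. Whether GLIS3 accounts for the opposite signs was not tested. The 24 h call was lost without VP64_A 24 h replicate 1 or 2 (log2 fold change -0.64, adjusted p = 0.0504 to 0.05597).

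The other serpins were also lower. SERPINE2 at 6 h was at 2068, 1989 and 2657 CPM in VP64_Ctrl and 878, 1114 and 1066 in VP64_A (log2 fold change -1.13, SE 0.23, edgeR adjusted p = 0.00161). Its call at 0 h was lost without VP64_A 0 h replicate 1, 2 or 3 or VP64_Ctrl 0 h replicate 1 or 2 (log2 fold change -0.87 to -0.66, adjusted p = 0.0507 to 0.133). That at 12 h was lost without VP64_A 12 h replicate 2 or 3 or VP64_Ctrl 12 h replicate 1 or 3 (log2 fold change -0.83 to -0.599, adjusted p = 0.0897 to 0.237). Both were also lost in a fit of only the libraries compared (-0.76, adjusted p = 0.0542 and -0.798, adjusted p = 0.198). At 24 h SERPINE2 was not called (log2 fold change -0.49, SE 0.23, edgeR adjusted p = 0.293) but passed in that fit (-0.51, adjusted p = 0.02104) and with limma on log2(TPM + 1) (-0.801, adjusted p = 0.000255). SERPINB2 at 6 h was at 3869.7, 6183 and 6182 CPM and 1303, 2228 and 1882 CPM, with no overlap (log2 fold change -1.58, SE 0.29, edgeR adjusted p = 0.000416). At 0 h it was at 11.99, 10.5 and 6.29 and 4.64, 6.04 and 3.29 (log2 fold change -1.05, SE 0.34, edgeR adjusted p = 0.04903). The call at 0 h was lost without VP64_A 0 h replicate 1, 2 or 3 or VP64_Ctrl 0 h replicate 1 or 2 (log2 fold change -1.26 to -0.86, adjusted p = 0.0552 to 0.1900), with the replicate number as a block (-1.05, adjusted p = 0.0569) and with DESeq2 size factors in edgeR (-1.05, adjusted p = 0.0532). At 12 h SERPINB2 was not called (log2 fold change -0.902, SE 0.28, edgeR adjusted p = 0.0662) but passed with DESeq2 (-0.903, adjusted p = 0.0104), with limma on log2(TPM + 1) (-0.99, adjusted p = 0.000369) and without the 3 libraries that stood apart (-0.901, adjusted p = 0.0297).

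Both coagulation inhibitors were lower in VP64_A. TFPI2 at 0 h was at 7.77, 5.22 and 8.68 CPM in VP64_Ctrl and 1.29, 1.76 and 1.98 in VP64_A, the latter from 12 to 15 estimated counts per library, and the groups were 4.36-fold apart (log2 fold change -2.12, SE 0.25, edgeR adjusted p = 4.33e-07). The log2 fold change was -1.196 at 6 h, -1.07 at 12 h and, without passing the test, -0.43 at 24 h (95% interval -0.795 to -0.06). TFPI was at 37.9, 44.7 and 29.3 CPM and 21.1, 22.4 and 14.5 CPM at 12 h (log2 fold change -0.95, SE 0.19, edgeR adjusted p = 0.00142). Its calls at the other times were lost without single libraries. At 0 h this was without VP64_A 0 h replicate 1, 2 or 3 or VP64_Ctrl 0 h replicate 1 or 3 (log2 fold change -0.66 to -0.48, adjusted p = 0.0507 to 0.136), and without the 3 libraries that stood apart (-0.53, adjusted p = 0.124). At 6 h it was without VP64_A 6 h replicate 3 or VP64_Ctrl 6 h replicate 1 (log2 fold change -0.67 to -0.61, adjusted p = 0.0963 to 0.1202). At 24 h it was without VP64_A 24 h replicate 1 or 3 or VP64_Ctrl 24 h replicate 1 or 2 (log2 fold change -0.73 to -0.62, adjusted p = 0.0663 to 0.176). With limma on log2(TPM + 1) TFPI was not called at any time, and the values were -0.99 at adjusted p = 0.0515 at 0 h, -0.64 at adjusted p = 0.537 at 6 h, -0.999 at adjusted p = 0.143 at 12 h and -0.91 at adjusted p = 0.141 at 24 h.

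F3 and PLAU were lower in VP64_A in untreated cells and were not called thereafter. F3 was at 108, 88.1 and 97.2 CPM in VP64_Ctrl and 41.6, 46.03 and 44.5 in VP64_A (log2 fold change -1.15, SE 0.21, edgeR adjusted p = 0.000279). It was at 198, 187 and 167 and 187, 200.1 and 173 at 24 h, where the libraries overlapped (95% interval of the log2 fold change -0.38 to 0.41). PLAU was at 11.7, 16.1 and 17.5 and 6.697, 8.43 and 7.74 at 0 h (log2 fold change -0.98, SE 0.21, edgeR adjusted p = 0.00212). It was at 143, 148 and 159.9 and 179.6, 217 and 228 at 6 h (log2 fold change 0.48, SE 0.18, edgeR adjusted p = 0.166), so that at that time all VP64_A libraries were above all VP64_Ctrl libraries without passing the test. PLAT went the other way. It was at 516, 365 and 544 CPM and 1692, 1003 and 1924 CPM at 12 h, with no overlap (3.24-fold, log2 fold change 1.697, SE 0.22, edgeR adjusted p = 1.99e-06). The difference at 6 h (log2 fold change 0.803, SE 0.21, edgeR adjusted p = 0.0223) was lost without VP64_A 6 h replicate 2 or 3 or VP64_Ctrl 6 h replicate 1 (log2 fold change 0.67 to 0.77, adjusted p = 0.0886 to 0.165). PLAUR differed by -0.17, -0.09, 0.13 and 0.04 at 0, 6, 12 and 24 h, with a 95% interval of -0.56 to 0.22 at 0 h. It passed at 0 h with limma on log2(TPM + 1) (-0.56, adjusted p = 0.0193).

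**Figure D5:**
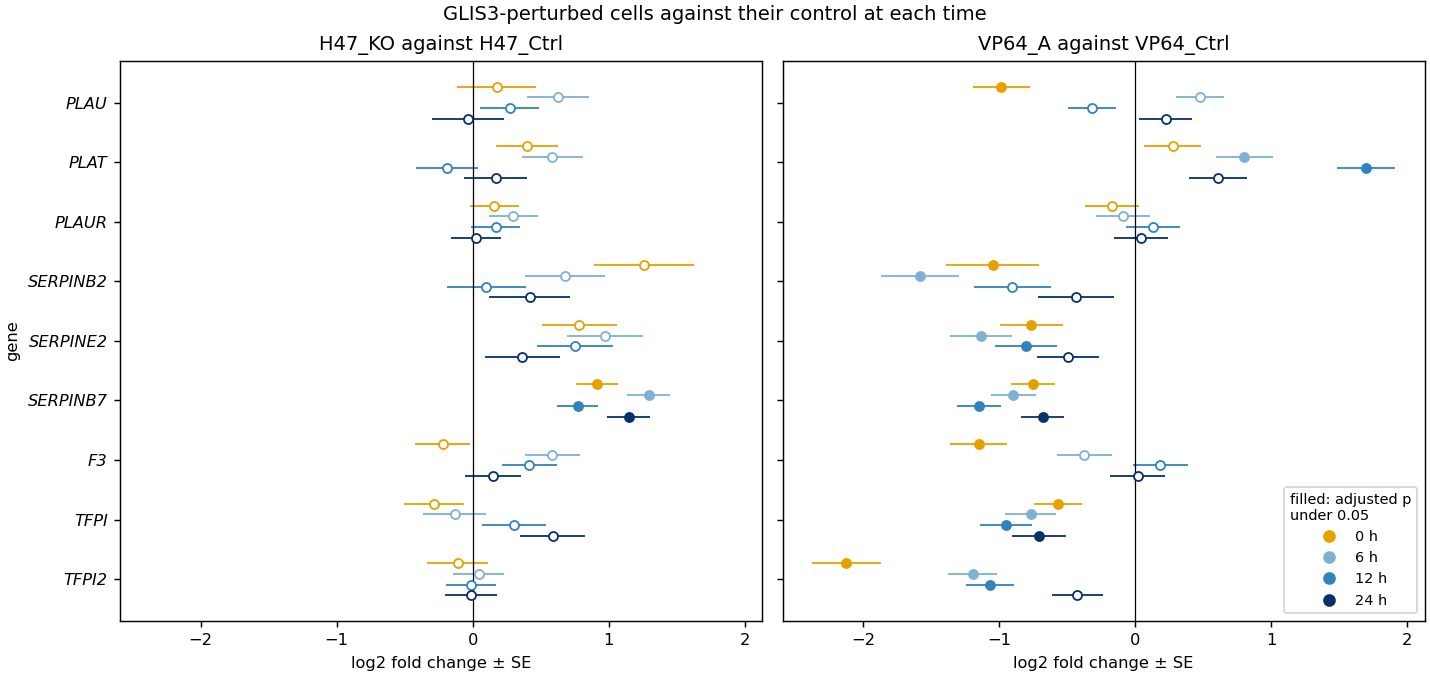
Log2 fold change (horizontal axis, with SE as bars) of each gene between H47_KO and H47_Ctrl (left) and between VP64_A and VP64_Ctrl (right) at 0, 6, 12 and 24 h. Filled points have edgeR adjusted p under 0.05, which on the left holds for SERPINB7 alone and on the right for 8 of the 9 genes at one time or more, with PLAT the only gene with filled points to the right of 0.

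Whether the cytokine response itself differed between the groups was tested as an interaction, the change from 0 h in the one group minus that in the other. No member was called between H47_KO and H47_Ctrl at 6, 12 or 24 h with edgeR, DESeq2 or limma, with 1, 2 and 1 of the 9 at an unadjusted p under 0.05 in edgeR. The share of all genes called with edgeR at adjusted p under 0.05 was 0.00912%, 0% and 0%. For the unadjusted threshold the share of all genes is not given here, so these numbers cannot be read as an excess. Between VP64_A and VP64_Ctrl, 4 tests passed with edgeR, PLAU at 6 h, F3 and PLAT at 12 h and TFPI2 at 24 h, each with the stronger rise in VP64_A, where 0.0546%, 0.182% and 0.128% of all genes were called in that direction. PLAU rose by 4.78 on the log2 scale at 6 h in VP64_A and by 3.32 in VP64_Ctrl (log2 fold change 1.46, SE 0.27, edgeR adjusted p = 0.0283 for the difference). F3 rose by 2.08 and 0.74 at 12 h (log2 fold change 1.34, SE 0.29, edgeR adjusted p = 0.03202), and PLAT by 2.42 and 0.99 (log2 fold change 1.42, SE 0.299, edgeR adjusted p = 0.0285). TFPI2 rose by 3.61 and 1.92 at 24 h (log2 fold change 1.696, SE 0.32, edgeR adjusted p = 0.00751). F3 and PLAU started lower in VP64_A, as given above, as did TFPI2, whereas PLAT did not differ by test at 0 h. Each of the 4 calls was lost without single libraries. PLAU was lost without VP64_A 0 h replicate 1, 2 or 3, VP64_A 6 h replicate 2 or 3, VP64_Ctrl 0 h replicate 3 or VP64_Ctrl 6 h replicate 1 or 3 (log2 fold change 1.34 to 1.52, adjusted p = 0.05995 to 0.137). F3 was lost without VP64_A 0 h replicate 1, 2 or 3, VP64_A 12 h replicate 1, VP64_Ctrl 0 h replicate 1 or 3 or VP64_Ctrl 12 h replicate 1, 2 or 3 (log2 fold change 0.96 to 1.396, adjusted p = 0.0533 to 0.109). PLAT was lost without VP64_A 0 h replicate 1, 2 or 3, VP64_A 12 h replicate 1 or 3, VP64_Ctrl 0 h replicate 1 or 2 or VP64_Ctrl 12 h replicate 1 or 2 (log2 fold change 1.23 to 1.496, adjusted p = 0.0502 to 0.113). TFPI2 was lost without VP64_A 0 h replicate 1 or VP64_A 24 h replicate 3 (log2 fold change 1.498 to 1.52, adjusted p = 0.0613 to 0.0824) and with limma on log2(TPM + 1), at 1.05 at adjusted p = 0.6301. Without the 3 libraries that stood apart, PLAU (1.34, adjusted p = 0.121) and F3 (1.34, adjusted p = 0.0622) were lost. A fit of only the libraries compared lost F3, PLAT and TFPI2 (1.32, adjusted p = 0.0647, 1.402, adjusted p = 0.137 and 1.68, adjusted p = 0.0544). Other settings added calls. DESeq2 called PLAU (1.203, adjusted p = 0.02003) and F3 (1.17, adjusted p = 0.0389) at 24 h. F3 at 24 h also passed in the fit of only the libraries compared (1.16, adjusted p = 0.0113), and limma on log2(TPM + 1) called F3 at 24 h (1.22, adjusted p = 0.04801) and PLAT at 6 h (1.01, adjusted p = 0.0275).

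The 2 control populations, VP64_Ctrl and H47_Ctrl, were compared in their responses only, since the arm cannot be told apart from the line and its handling. No member was called at 6 or 12 h with edgeR, with 3 and 5 of 9 at an unadjusted p under 0.05, whereas DESeq2 called SERPINB2 at 6 h (1.64, adjusted p = 0.0107) and SERPINB7 at 12 h (0.76, adjusted p = 0.0472). With edgeR at adjusted p under 0.05, the share of all genes with the stronger response in VP64_Ctrl was 0.333% and 0.228%. For the unadjusted threshold the share of all genes is not given here, so the 3 and 5 cannot be read as an excess. At 24 h SERPINB2, F3 and SERPINB7 had the stronger response in VP64_Ctrl, 3 of 9 genes where 0.42% of all genes were called in that direction. SERPINB2 was up by 7.27 on the log2 scale in VP64_Ctrl and 4.96 in H47_Ctrl (log2 fold change 2.31, SE 0.49, edgeR adjusted p = 0.00997 for the difference). For SERPINB7 the responses were 1.11 and -0.18 (log2 fold change 1.29, SE 0.22, edgeR adjusted p = 0.000819), and for F3 0.91 and -0.41 (log2 fold change 1.32, SE 0.298, edgeR adjusted p = 0.0182). The SERPINB2 call was lost without H47_Ctrl 0 h replicate 1 or 2 or VP64_Ctrl 24 h replicate 1 (log2 fold change 2.102 to 2.17, adjusted p = 0.0567 to 0.0675). The F3 call was lost without H47_Ctrl 0 h replicate 1, H47_Ctrl 24 h replicate 1, VP64_Ctrl 0 h replicate 2 or VP64_Ctrl 24 h replicate 1 (log2 fold change 1.17 to 1.26, adjusted p = 0.0697 to 0.131). With limma on log2(TPM + 1) the SERPINB7 call was lost, at 1.17 at adjusted p = 0.0654.

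The genes whose pattern over the 16 condition means, centred within each pair of cell populations, was most like that of each member were named by Pearson's r among 10691 genes. PLAUR had the closest, with FRMD8 at r = 0.990, SLC25A37 at 0.983 and BCL2A1, an anti-apoptotic NF-kB target, at 0.982. SERPINB2 was followed by SLC2A6 (0.986), AMPD3 (0.975) and TNIP1 (0.974). For PLAU the genes were NDEL1 (0.975), PNP (0.968) and RAB5A (0.965), and for TFPI2 they were MARCH3 (0.970), the cytokine gene CSF2 (0.965) and FOXP1 (0.963). PLAT was nearest to MPRIP (0.940), UPP1 (0.926) and TAGLN3 (0.926), and SERPINE2 to the cadherin gene CDH2 (0.936), the integrin gene ITGA2 (0.928) and SLC12A4 (0.923). F3 was nearest to GBP3 (0.931), GGNBP2 (0.908) and SERPINB8 (0.907), SERPINB7 to ANO10 (0.926), CD68 (0.884) and PDIA5 (0.880), and TFPI to the integrin gene ITGA4 (0.892), NQO1 (0.888) and POM121C (0.877). These points share libraries and their time course, and the values are descriptions over 16 means.

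The remaining genes of both pathways were examined as lists that hold none of the 9 members. Of 17 plasminogen system genes 11 passed the filter in the H47 pair and 9 in the VP64 pair, and of 33 coagulation genes 13 passed in each. The proenzyme PLG itself reached at most 1 estimated count in any library. The liver-made factors F2, F7, F9 and FGB were listed at 0 in all 48, as was the thrombin cofactor THBD. Other factor genes were detected at low levels. F10 was at 0.374 to 11.6 TPM, and F8, F12 and PROS1 had medians of 0.846, 0.786 and 1.26 TPM. Between H47_KO and H47_Ctrl no gene of either list was called at any time (edgeR, with 0, 1, 0 and 0 plasminogen genes and 4, 2, 0 and 2 coagulation genes at an unadjusted p under 0.05 at 0, 6, 12 and 24 h). The share of all genes at that unadjusted threshold is not given here.

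With the cytokines, the matrix glycoprotein gene THBS1 stood out in the plasminogen list. Its log2 fold changes at 24 h were 2.12 in H47_Ctrl, 1.502 in H47_KO, 3.75 in VP64_Ctrl and 3.38 in VP64_A. S100A10, which with ANXA2 holds plasminogen at the cell surface, rose at 6 h in H47_Ctrl (0.76), VP64_Ctrl (0.94) and VP64_A (0.93) and was lower at 24 h than at 6 h in all 4 groups (between -1.63 and -1.24). At 12 h, 2, 0, 2 and 2 plasminogen genes rose and 0, 0, 1 and 0 fell in H47_Ctrl, H47_KO, VP64_Ctrl and VP64_A, of 11 tested in the H47 pair and 9 in the VP64 pair. Of all genes tested, 11.3%, 14.4%, 15.3% and 12.6% rose and 8.27%, 13%, 11.5% and 7.1% fell. The urokinase-uptake receptor MRC2 was the other gene that rose, by 0.83, 0.82 and 0.76 in the 3 groups where it passed, and LRP1, which clears activator-inhibitor complexes, was the gene that fell (-0.85). The median of the list at 12 h was between -0.02 and 0.27.

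In the coagulation list, 3, 6, 3 and 2 of the 13 genes tested fell at 12 h, where 8.27%, 13%, 11.5% and 7.1% of all genes fell, in the same order of groups. The numbers that rose were 0, 1, 2 and 1, where 11.3%, 14.4%, 15.3% and 12.6% of all genes rose. F2R, the thrombin receptor, fell in all 4 (-0.97, -0.85, -1.03 and -1.04), as did GAS6, a vitamin K-dependent ligand of receptor tyrosine kinases (-2.998, -2.98, -2.46 and -1.51). F2RL2 fell in H47_KO (-1.59) and VP64_Ctrl (-0.902), and F12 in H47_Ctrl (-2.95) and H47_KO (-2.204). The F12 values rest on few counts, so these folds are imprecise. Its mean CPM was 0.232 at 12 h against 1.97 untreated in H47_Ctrl, and 0.265 against 1.44 in H47_KO. No library held more than 24 estimated counts of F12. Of the genes that rose, LMAN1, a transport receptor for factors V and VIII, did so in H47_KO (0.75) and VP64_Ctrl (1.13), its cofactor MCFD2 in VP64_A (0.84) and the anticoagulant annexin ANXA5 in VP64_Ctrl (0.77). The list's median was between -0.502 and -0.05, with medians over all genes between -0.05 and 0.01.

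Between VP64_A and VP64_Ctrl, VKORC1, the enzyme that recycles vitamin K, was higher at all 4 times (0.52, 0.58, 0.67 and 0.796) and was the only coagulation gene called after 0 h. At 0 h F2RL2 (-1.05) and the protein C receptor PROCR (-0.66) were lower. In the plasminogen list S100A10 was lower at 0, 6 and 12 h (-0.97, -0.98 and -0.82), LRP1 at 0 h (-0.89) and THBS1 at 24 h (-1.01). All values here are edgeR log2 fold changes with adjusted p under 0.05.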

How the data were processed

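The series holds 48 RNA-seq libraries. Per the labels and the study's methods, reads went through Trim Galore, STAR (GRCh38) and Salmon, with versions, annotation and strand setting not given in the sources used here. The authors deposited estimated counts and TPM per gene. Of the estimated counts, 6.38% were not whole, and all were rounded. Genes were kept with filterByExpr (minimum count 10, minimum total 15), normalised by TMM and tested two-sided with edgeR's quasi-likelihood F test (edgeR 4.0.16, R 4.3.3), with Benjamini-Hochberg adjustment over all genes tested and a threshold of 0.05. Each pair of populations was fitted as 24 libraries in 8 groups, and the control populations were compared in a joint fit. CPM levels are therefore not compared across pairs, and genes are compared in TPM. Alternatives were DESeq2 1.42.0, its size factors in edgeR, no filter, limma 3.58.1 on log2-transformed TPM with a pseudocount of 1 or 0.1, only the libraries compared, a replicate block and each library left out. Leaving out the 3 libraries with a TMM factor over 1.5 was chosen after seeing the data. The fit was tested on simulated data.

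The 9 genes, both pathway lists and the motifs were chosen with earlier results of these data known. Named list genes were at most 4 per direction, the largest changes called, and for each member the 3 most correlated genes were named. Total counts bound the precision of low genes. Without a known strand setting, reads from overlapping genes on opposite strands cannot be told apart, which touches PLAU, TFPI and TFPI2, and SERPINB2 shares exonic bases with a gene model on its own strand. No replicate pair was identical. Sequences are from RefSeq, and PLAT had no window in the table used.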

Additional observations from a re-analysis of the deposited data

Results flagged for a closer look

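In 7 tests the response to TGFβ and IL-1β differed between 2 populations of cells by a test of the difference itself. Between VP64_A and VP64_Ctrl these were PLAU at 6 h (difference of log2 fold changes 1.46, edgeR adjusted p = 0.0283), F3 at 12 h (1.34, adjusted p = 0.03202), PLAT at 12 h (1.42, adjusted p = 0.0285) and TFPI2 at 24 h (1.696, adjusted p = 0.00751). Between VP64_Ctrl and H47_Ctrl they were F3 (1.32, adjusted p = 0.0182), SERPINB2 (2.31, adjusted p = 0.00997) and SERPINB7 (1.29, adjusted p = 0.000819), all at 24 h. The control populations differ in line and handling, which cannot be told apart from one another.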

How the results depend on the processing

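The number of calls over the 9 genes in H47_KO against H47_Ctrl was 4, and it was 7 with DESeq2 and 2 when an absolute log2 fold change of at least 1 was also asked. Shares of all genes were given for edgeR with all libraries only, so the counts under other settings have none beside them. In VP64_A against VP64_Ctrl it was 20, and 9 with that fold limit. The 4 interaction calls in the VP64 pair became 2 in a fit of only the libraries compared and 2 without the libraries with a TMM factor over 1.5, and ranged from 0 to 5 when single libraries were left out. The 3 calls between the control populations became 5 with DESeq2 and 1 with limma on log2(TPM + 0.1), and ranged from 1 to 4 without single libraries. The counts for the cytokine responses and for 24 h against 6 h stayed within 1.5 times under each alternative run. SERPINB7 at 6 h in VP64_Ctrl, at 0.49, had the opposite sign in limma on log-transformed TPM, at -0.199 with a pseudocount of 1 and -0.201 with 0.1. The cause of these changes was not tested. With the replicate block, 1 call of the 9 genes was lost, SERPINB2 at 0 h in VP64_A against VP64_Ctrl (-1.05, adjusted p = 0.0569), which took that count from 20 to 19, and no other call of the 9 genes changed. A pairing of libraries by replicate number was not seen by the rule used. In 0 of 24 contrasts of 2 groups did every same-number pair correlate above 0.1, with correlations from -0.0993 to 0.204. With 3 libraries per group, this rule cannot show that pairing is absent. Low counts limit the untreated levels of SERPINB2 and TFPI2 and the values of F12.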
